A study of Rattus norvegicus with 12 samples.

Results

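The genes described here are 10 members of the interleukin 1 family and of the inflammasome pathway that feeds it, chosen by gene symbol: Il1a, Il1b, Il1rn, Il18 and Il33 among the ligands and their antagonist, Il1r1, Il1r2 and Il1rap among the receptors, and Nlrp3 and Casp1 of the inflammasome. They are 10 of the 30562 genes counted by poly(A) RNA sequencing of stumps of the rat sciatic nerve, and all 10 passed the filter on low counts that left 15712 genes for testing. Il1a passed it through its levels in CC4:4 and Control stumps. The 12 samples form 4 groups of 3. VP4:2 stumps lay in a truncated-cone conduit of the 4:2 shape that also carried verteporfin, a compound known to keep YAP, a coactivator that responds to mechanical load, from binding TEAD transcription factors. CC4:2 stumps lay in the 4:2 conduit without it, CC4:4 stumps in a conduit of the 4:4 shape, and Control stumps are named only as controls. Strain, age, sex, the interval after surgery and whether each sample was 1 animal are not given in the sources used here, so the p-values reflect how far the samples of a group lie apart, and part of that spread may be technical. The tested questions were what the conduit shape and the added verteporfin changed in the nerve stump.

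Interleukin 1 beta is made mainly by activated myeloid cells. Like interleukin 1 alpha, it acts on the signalling receptor IL1R1 with its partner IL1RAP. This leads to NF-kB activity, chemokine release and, in peripheral nerve, to macrophage and neutrophil entry after injury and to sensitisation of pain fibres. The antagonist IL1RN occupies IL1R1 without signalling, and the decoy receptor IL1R2 binds IL-1 without signalling. IL-1 beta and IL-18 are made as precursors that caspase 1 cuts inside the NLRP3 inflammasome, whereas IL-33 is a nuclear alarmin of stromal, endothelial and glial cells that signals through ST2, encoded by Il1rl1. The data are RNA levels, so cutting and release of these proteins were not measured.

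Levels are counts per 1000000 counts of a library (CPM), after scaling by the trimmed mean of M values, and allow a gene to be compared between samples but not with a gene of another length. Changes are log2 fold changes ± standard error (SE) with 3 samples per group, from edgeR's quasi-likelihood test over all 12 samples, and a gene is said to rise or fall where its Benjamini-Hochberg adjusted p over all 15712 genes was under 0.05. Library totals ran between 13763106 and 18632301 counts. All 8 Schwann cell markers held counts in every library. Control replicate 1 stood apart, since its Schwann cell marker sum was 331 CPM, against 2284 and 3939 CPM in the other Control libraries. The skeletal muscle marker sum ran between 3.43 and 9373 CPM over the 12 libraries without following the groups.

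The 10 genes followed several patterns over the groups. Il1a, Il1b and Il1r2 were low in both groups with the 4:2 shape and high in CC4:4 and Control stumps. Il1rn and Il18 were low in CC4:2 stumps, and only those stood apart. Nlrp3, Casp1 and Il1r1 were lowest in CC4:2 stumps too, with VP4:2 stumps in between. Il33 was highest in VP4:2 stumps, and Il1rap differed little between groups.

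**Figure D1:**
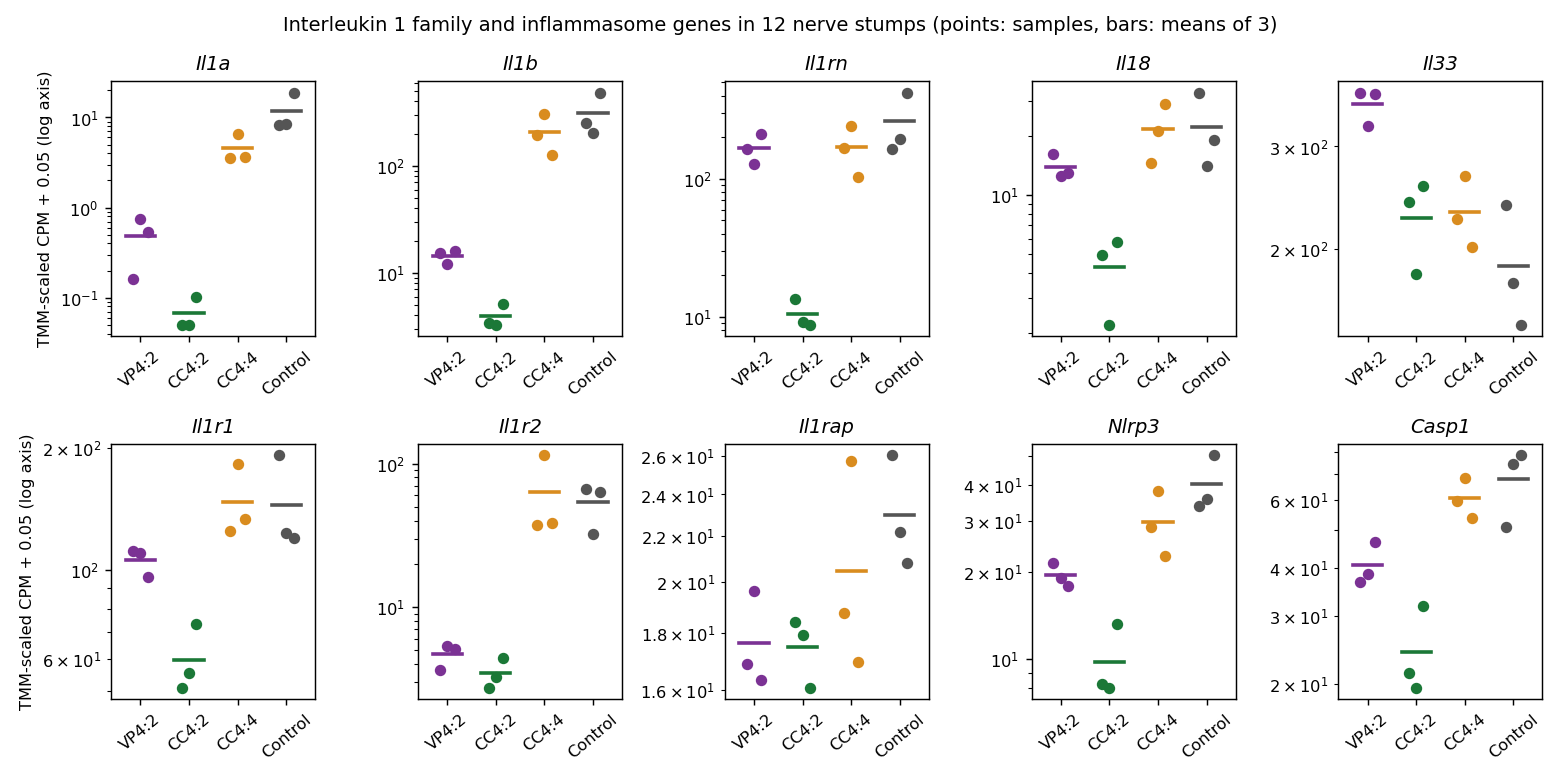
Level of each of the 10 genes in every library, in CPM with 0.05 added on a log axis, for VP4:2, CC4:2, CC4:4 and Control stumps from left to right. Points are libraries and bars are group means (n = 3). Il1b stays at or under 15.8 CPM in the VP4:2 and CC4:2 libraries and reaches 127 CPM or more in every CC4:4 and Control library, whereas Il1rn is at 129 CPM or more in VP4:2 libraries.

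Il1a, the IL-1 released by dying cells as an alarmin, was almost absent from CC4:2 stumps. It was at 0.110, 0.698 and 0.487 CPM in replicates 1, 2 and 3 of VP4:2, at 0, 0 and 0.0522 CPM in CC4:2, at 3.52, 6.50 and 3.56 CPM in CC4:4, and at 8.15, 8.43 and 18.8 CPM in Control. The 3 CC4:2 libraries held 1 count together, against 24 counts in VP4:2, 208 in CC4:4 and 486 in Control. The 4 groups did not overlap, although CC4:4 against Control did not pass the test. Since the fitted fold against CC4:2 depends on the prior count, the ratio of pooled counts is given with its exact 95% interval, which covers counting error only. Il1a in VP4:2 was 24.2 times the CC4:2 level, with an interval of 3.94 to 995. In CC4:2 it was 0.00400 of the CC4:4 level (0.000101 to 0.0225) and 0.00159 of the Control level (4.01e-05 to 0.00887). The tests called Il1a higher in VP4:2 than in CC4:2 (adjusted p = 0.0412), lower in CC4:2 than in CC4:4 (adjusted p = 0.000260) and than in Control (adjusted p = 7.33e-05). In VP4:2 it fell by 3.36 ± 0.61 against CC4:4 (adjusted p = 0.0117) and changed by -4.74 ± 0.63 against Control (adjusted p = 0.00227). The call against CC4:2 was lost without VP4:2 replicate 2 (adjusted p = 0.107), VP4:2 replicate 3 (0.122) or any CC4:2 replicate (0.119, 0.140 and 0.0668 without replicates 1, 2 and 3), and the call against CC4:4 without CC4:4 replicate 2 (0.0535).

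Il1b, the main secreted IL-1 of macrophages and neutrophils, was at 15.2, 12.03 and 15.8 CPM in VP4:2 replicates 1, 2 and 3, at 3.34, 3.21 and 5.06 CPM in CC4:2, at 192, 303 and 127 CPM in CC4:4, and at 253, 202 and 484 CPM in Control. Every CC4:2 library lay under every VP4:2 library, and every VP4:2 library lay under every CC4:4 and Control library. Il1b rose by 1.89 ± 0.39 in VP4:2 against CC4:2 (3.70-fold, adjusted p = 0.0168). It remained 14.4-fold lower in VP4:2 than in CC4:4 (-3.85 ± 0.41, adjusted p = 0.00181) and 21.8-fold lower than in Control (-4.44 ± 0.42, adjusted p = 0.000897). The comparison with CC4:2 lost its call without VP4:2 replicate 1 (adjusted p = 0.0526) or 3 (0.0620) and without CC4:2 replicate 1 (0.0680) or 2 (0.0771). Among the 8 NovaSeq libraries alone, Il1b was called in each comparison that involved a 4:2 group, with 2.06 on the log2 scale for VP4:2 against CC4:2 (adjusted p = 0.0306).

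Il1rn, which encodes the IL-1 receptor antagonist, was at 166, 129 and 210 CPM in VP4:2 replicates 1, 2 and 3, at 13.4, 9.19 and 8.72 CPM in CC4:2, at 166, 242 and 104 CPM in CC4:4, and at 166, 195 and 421 CPM in Control. VP4:2 libraries lay within the range of the CC4:4 and Control libraries, and the CC4:2 libraries lay apart below all of them. Il1rn rose 16.1-fold in VP4:2 against CC4:2 (4.01 ± 0.44, adjusted p = 0.000525) and fell 16.3-fold in CC4:2 against CC4:4 (-4.03 ± 0.44, adjusted p = 0.000169). Of the members called in VP4:2 against CC4:2, it alone was called under all 12 alternative settings. Over these its log2 fold change ran between 3.71 and 4.23. Il1rn fell 24.9-fold in CC4:2 against Control (-4.64 ± 0.45, adjusted p = 6.57e-05). Against CC4:4, VP4:2 differed by -0.02 ± 0.39 (adjusted p = 0.976), and against Control by -0.63 ± 0.39 (adjusted p = 0.277), and neither passed the test. Its deposited values were not whole in 5 of the 12 libraries, so some reads were shared out by the estimate, and the gene-level count does not separate the secreted and intracellular forms of the antagonist.

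The balance between antagonist and agonist RNA was read as the ratio of Il1rn to Il1b counts within each library, which does not depend on scaling between libraries. The ratio was 10.9, 10.7 and 13.3 in VP4:2 replicates 1, 2 and 3, 4.04, 2.86 and 1.72 in CC4:2, 0.865, 0.800 and 0.820 in CC4:4, and 0.656, 0.964 and 0.870 in Control. It averaged 11.6 ± 1.46 in VP4:2, 2.87 ± 1.16 in CC4:2, 0.828 ± 0.0337 in CC4:4 and 0.830 ± 0.158 in Control (SD, n = 3 each). VP4:2 stumps thus held the highest ratio, with no overlap with any other group. By geometric means it was 4.27-fold higher in VP4:2 than in CC4:2, 13.97-fold higher than in CC4:4 and 14.1-fold higher than in Control. CC4:2 was also higher than CC4:4 (3.27-fold) and Control (3.30-fold), while CC4:4 and Control overlapped (1.01-fold, exact two-sided permutation p = 1). Each of the 5 comparisons without overlap gave an exact two-sided permutation p of 0.1, which is the smallest that 3 against 3 samples allow and cannot pass 0.05.

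**Figure D2:**
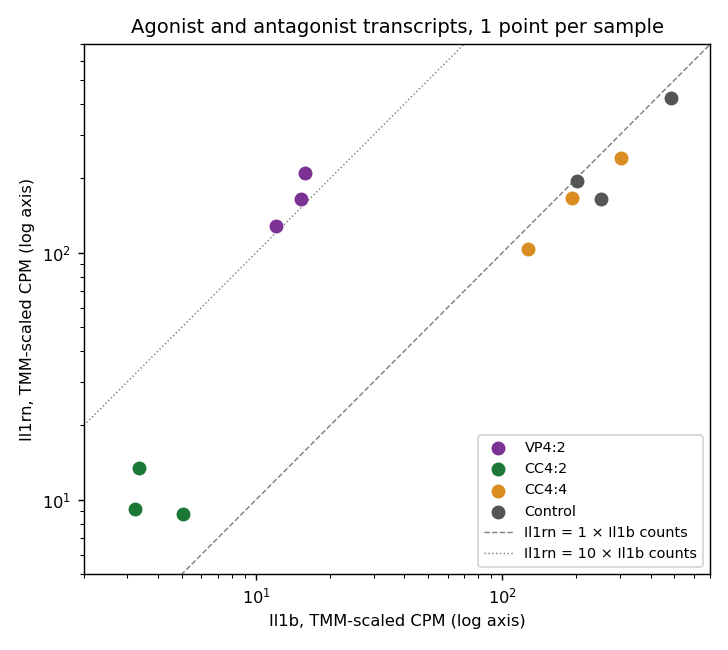
Il1rn against Il1b in each of the 12 libraries, both in CPM on log axes, with lines of equal Il1rn to Il1b count ratio. VP4:2 libraries sit at ratios of 10.7 to 13.3, CC4:2 libraries at 1.72 to 4.04, and the CC4:4 and Control libraries at 0.656 to 0.964.

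The RefSeq promoters of these 3 genes, on assembly GRCr8, are shown because Il1a, Il1b and Il1rn sit on rat chromosome 3 and hold the letters of a TATA box close to their starts. Each runs from 250 bases before to 50 bases after the annotated start, and capitals mark TATAAA on either strand (TTTATA where it lies on the other strand). Il1a is at chr3:136989968-136990267, minus strand, Il1b at chr3:137036532-137036831, minus strand, and Il1rn at chr3:27520072-27520371, plus strand.
Il1a: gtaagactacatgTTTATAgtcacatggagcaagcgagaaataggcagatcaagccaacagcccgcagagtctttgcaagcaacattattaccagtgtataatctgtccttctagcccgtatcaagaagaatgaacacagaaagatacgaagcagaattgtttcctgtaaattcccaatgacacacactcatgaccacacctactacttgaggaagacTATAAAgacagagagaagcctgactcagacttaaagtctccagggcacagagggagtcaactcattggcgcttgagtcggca
Il1b: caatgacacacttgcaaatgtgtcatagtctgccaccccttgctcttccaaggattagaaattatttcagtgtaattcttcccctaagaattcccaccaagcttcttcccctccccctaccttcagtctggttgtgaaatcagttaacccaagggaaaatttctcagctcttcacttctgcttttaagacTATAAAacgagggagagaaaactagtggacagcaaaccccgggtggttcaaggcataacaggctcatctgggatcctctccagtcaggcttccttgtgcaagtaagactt
Il1rn: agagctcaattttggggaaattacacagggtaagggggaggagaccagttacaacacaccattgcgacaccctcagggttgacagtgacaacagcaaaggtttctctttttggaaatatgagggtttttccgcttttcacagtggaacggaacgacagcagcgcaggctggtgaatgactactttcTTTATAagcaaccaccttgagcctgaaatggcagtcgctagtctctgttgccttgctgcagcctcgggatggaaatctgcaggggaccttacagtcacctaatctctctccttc
Relative to the start, TATAAA began at -32 for Il1a, which also held it at -237 on the other strand, at -60 for Il1b and, on the other strand, at -64 for Il1rn. Of all 33469 RefSeq windows of 300 bases, 14.2% held TATAAA on some strand. Il1a and Il1b are next to each other in the RefSeq order, and Il1rn is next to Il1f10. A match describes letters in a window and shows no binding.

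Il18, the other caspase 1 substrate and an inducer of interferon gamma, followed a milder course. It was at 16.1, 12.4 and 12.9 CPM in VP4:2 replicates 1, 2 and 3, at 4.92, 2.14 and 5.74 CPM in CC4:2, at 14.4, 21.1 and 29.0 CPM in CC4:4, and at 33.0, 13.9 and 18.98 CPM in Control. Only the CC4:2 libraries lay apart, below all others. Il18 rose 3.22-fold in VP4:2 against CC4:2 (1.69 ± 0.41, adjusted p = 0.0361) and fell 5.02-fold in CC4:2 against CC4:4 (-2.33 ± 0.42, adjusted p = 0.00177) and 5.13-fold against Control (-2.36 ± 0.42, adjusted p = 0.00135). The rise in VP4:2 lost its call without any 1 of the VP4:2 libraries or without CC4:2 replicate 1 or 2, at an adjusted p of 0.0661 to 0.115. Il18bp, the soluble protein that neutralises IL-18, also rose in VP4:2 against CC4:2 (1.70 ± 0.25, adjusted p = 0.00268, and 0.0592 among NovaSeq libraries alone). The ratio of Il18bp to Il18 counts was 1.95 ± 0.317 in VP4:2, 2.12 ± 0.626 in CC4:2, 0.821 ± 0.364 in CC4:4 and 0.961 ± 0.452 in Control (SD, n = 3 each), so both 4:2 groups lay above the other groups without overlap.

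Il33 ran differently from the other ligands. It was at 371, 325 and 369 CPM in VP4:2 replicates 1, 2 and 3, at 241, 181 and 256 CPM in CC4:2, at 225, 267 and 202 CPM in CC4:4, and at 238, 175 and 148 CPM in Control. All VP4:2 libraries lay above all others, and the other groups overlapped. Il33 rose 1.90-fold in VP4:2 against Control (0.92 ± 0.20, adjusted p = 0.0134). Against CC4:2 (0.65 ± 0.20, adjusted p = 0.0915) and CC4:4 (0.62 ± 0.20, adjusted p = 0.0730) the difference did not pass the test. The result against Control held without each library in turn but not among NovaSeq libraries alone (0.78, adjusted p = 0.173). Il1rl1, which encodes the IL-33 receptor ST2, was at 33.9, 36.9 and 29.2 CPM in VP4:2, at 13.7, 14.7 and 14.6 CPM in CC4:2, at 13.0, 14.1 and 18.7 CPM in CC4:4, and at 16.8, 22.8 and 21.2 CPM in Control. It likewise was highest in all 3 VP4:2 libraries, rising by 1.22 ± 0.17 against CC4:2 (adjusted p = 0.00188), 1.13 ± 0.17 against CC4:4 (adjusted p = 0.00680) and 0.72 ± 0.17 against Control (adjusted p = 0.0171). The call against Control was lost without VP4:2 replicate 1 (adjusted p = 0.0568) or 2 (0.0678), and among NovaSeq libraries alone the calls against CC4:4 (0.0619) and Control (0.112) were lost.

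Il33 has a pair of RefSeq start windows, which are shown because verteporfin acts on the YAP and TEAD complex and both windows hold the TEAD element CATTCC or its reverse complement GGAATG, in capitals. Window 1 is at chr1:237115323-237115622 and window 2 at chr1:237134696-237134995 on GRCr8, both on the plus strand.
Il33 window 1: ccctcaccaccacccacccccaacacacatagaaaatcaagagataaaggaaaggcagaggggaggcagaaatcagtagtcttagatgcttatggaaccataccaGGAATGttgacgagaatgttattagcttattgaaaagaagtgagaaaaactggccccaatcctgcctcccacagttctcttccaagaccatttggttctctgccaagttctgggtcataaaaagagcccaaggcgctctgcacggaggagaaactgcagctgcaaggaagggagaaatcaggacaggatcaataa
Il33 window 2: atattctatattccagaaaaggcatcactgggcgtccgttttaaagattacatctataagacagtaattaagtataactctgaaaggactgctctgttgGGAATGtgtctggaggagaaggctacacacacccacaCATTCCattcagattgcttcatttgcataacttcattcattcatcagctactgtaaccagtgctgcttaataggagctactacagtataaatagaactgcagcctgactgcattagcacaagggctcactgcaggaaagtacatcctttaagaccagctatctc
The element lay at -145 in window 1 and at -151 and -114 in window 2, and window 2 also held TATAAA at -29. CATTCC on either strand was present in 14.2% of all RefSeq windows. Among the 9 members with a window, 3 held it, which are Il1r1, Casp1 and Il33, and 4 held TATAAA. The AP-1 site TGANTCA was found for Il1a and Il18 (7.33% of all windows) and the NF-kB consensus for Il1r1 and Il1rap (7.51%). None of Il1r1, Casp1 and Il33 passed the test for VP4:2 against CC4:2, and nothing is drawn from the matches about the factors.

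Among the receptors, the signalling receptor Il1r1 and the decoy Il1r2 both fell in CC4:2 stumps against CC4:4 and Control, and Il1r2 also fell in VP4:2 stumps. Il1r1 was at 111, 110 and 95.6 CPM in VP4:2 replicates 1, 2 and 3, at 51.0, 55.3 and 73.1 CPM in CC4:2, at 125, 183 and 133 CPM in CC4:4, and at 192, 123 and 120 CPM in Control. CC4:2 libraries were the lowest and did not overlap with any group, and the VP4:2 libraries lay just under those of CC4:4 and Control. Il1r1 fell 2.46-fold in CC4:2 against CC4:4 (-1.30 ± 0.22, adjusted p = 0.00150) and 2.42-fold against Control (-1.28 ± 0.22, adjusted p = 0.00133). VP4:2 differed from CC4:2 by 0.82 ± 0.22 (adjusted p = 0.0547), from CC4:4 by -0.48 ± 0.22 (adjusted p = 0.186) and from Control by -0.46 ± 0.22 (adjusted p = 0.171), and none of these passed the test.

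Il1r2, at 3.62, 5.32 and 5.09 CPM in VP4:2, at 2.70, 3.21 and 4.33 CPM in CC4:2, at 37.2, 114 and 38.2 CPM in CC4:4 and at 66.2, 32.3 and 63.6 CPM in Control, was low in both 4:2 groups, which overlapped. It fell 13.5-fold in VP4:2 against CC4:4 (-3.75 ± 0.48, adjusted p = 0.00350) and 11.6-fold against Control (-3.53 ± 0.48, adjusted p = 0.00245). In CC4:2 it fell 18.4-fold against CC4:4 (-4.20 ± 0.49, adjusted p = 0.000242) and 15.8-fold against Control (-3.98 ± 0.49, adjusted p = 0.000205), while VP4:2 and CC4:2 differed by 0.45 ± 0.46 (adjusted p = 0.604). The Il1r2 to Il1r1 count ratio was 0.0447 ± 0.0108 in VP4:2, 0.0568 ± 0.00336 in CC4:2, 0.403 ± 0.191 in CC4:4 and 0.380 ± 0.138 in Control (SD, n = 3 each). Decoy RNA per signalling receptor RNA was thus lower in each 4:2 group than in CC4:4 or Control without overlap (exact two-sided permutation p = 0.1, the smallest possible), and VP4:2 overlapped CC4:2 (p = 0.2 by the same exact test).

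Il1rap, the partner that IL-1 and IL-33 receptors share, stayed between 16.0 and 26.0 CPM in all 12 libraries. No comparison called it, although every VP4:2 and CC4:2 library lay under every Control library. The Il1rap differences ran between -0.40 (CC4:2 against Control, adjusted p = 0.0782) and 0.01 (VP4:2 against CC4:2, adjusted p = 0.976) on the log2 scale, each with an SE of 0.17.

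Of the inflammasome genes, Nlrp3 encodes the sensor whose own transcription is the priming step. It was at 21.5, 19.01 and 17.9 CPM in VP4:2 replicates 1, 2 and 3, at 8.15, 7.95 and 13.2 CPM in CC4:2, at 28.5, 38.0 and 22.6 CPM in CC4:4, and at 33.8, 35.8 and 50.4 CPM in Control. VP4:2 libraries lay between those of CC4:2 and those of CC4:4 and Control with no overlap. Nlrp3 rose 1.99-fold in VP4:2 against CC4:2 (0.99 ± 0.25, adjusted p = 0.0419) and fell 2.05-fold in VP4:2 against Control (-1.04 ± 0.25, adjusted p = 0.0183). The rise was lost without any 1 of the VP4:2 libraries or without CC4:2 replicate 1 or 2 (adjusted p of 0.0858 to 0.146) and with the replicate number as a block (0.0693), and the fall against Control without VP4:2 replicate 2 (0.0648) or 3 (0.0633) or Control replicate 3 (0.0846).

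Casp1, the protease that activates IL-1 beta and IL-18, was at 36.8, 38.5 and 46.6 CPM in VP4:2, at 21.3, 19.5 and 31.7 CPM in CC4:2, at 59.5, 68.1 and 53.8 CPM in CC4:4, and at 51.0, 74.4 and 78.2 CPM in Control. It took the same intermediate place in VP4:2 without overlap, but the 1.68-fold difference from CC4:2 did not pass the test (0.75 ± 0.21, adjusted p = 0.0682). Casp1 fell 1.67-fold in VP4:2 against Control (-0.74 ± 0.21, adjusted p = 0.0362), a call lost without any 1 of the VP4:2 libraries or Control replicate 2 or 3 (adjusted p of 0.0560 to 0.146) and on the 6 compared samples alone (0.0531). In CC4:2 the falls were 3.04-fold for Nlrp3 and 2.50-fold for Casp1 against CC4:4 (adjusted p = 0.000956 and 0.00114) and 4.09-fold and 2.80-fold against Control (adjusted p = 0.000237 and 0.000481).

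**Figure D3:**
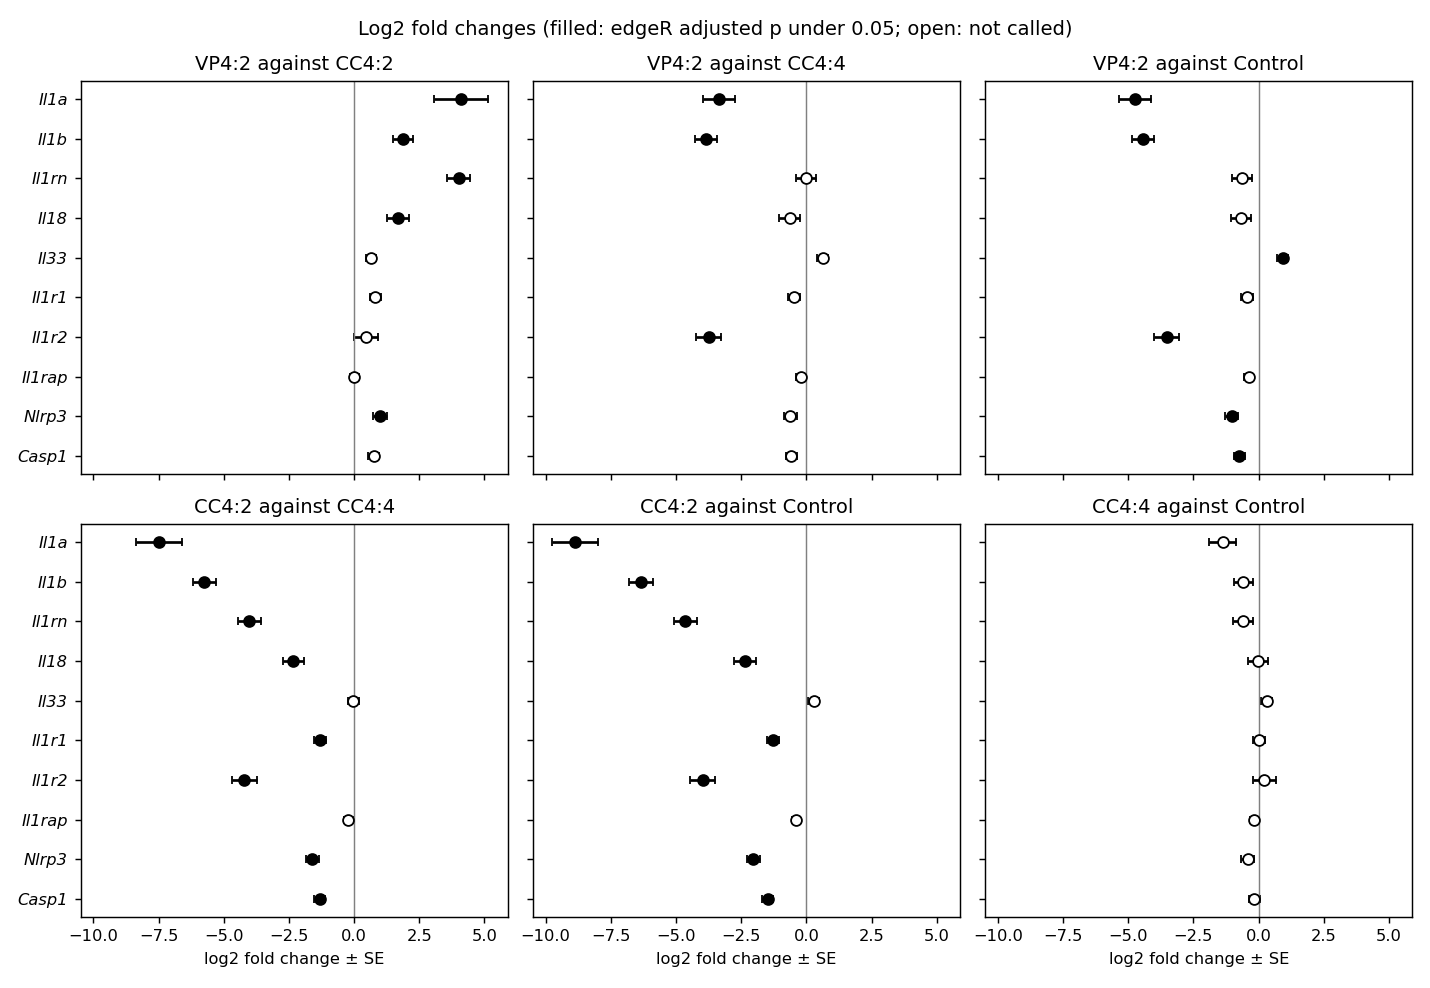
Log2 fold change of each of the 10 genes in the 6 comparisons, with bars of ± 1 SE from the edgeR fit (n = 3 per group) and filled points where the adjusted p was under 0.05. Il1rn stands at 4.01 for VP4:2 against CC4:2 and at -0.02 for VP4:2 against CC4:4, whereas Il1b stands at 1.89 and -3.85 in the same comparisons. The Il1a values against CC4:2 rest on 1 count in that group.

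Counted over the 10 genes, 5 rose and 0 fell in VP4:2 against CC4:2, a comparison that called 6.23% of all tested genes (5.23% higher and 0.999% lower), and the median change was 0.91 over the 10 genes and -0.03 over all genes. The count was 4 with the replicate number as a block, 1 or 2 when any 1 of the VP4:2 libraries or CC4:2 replicate 1 or 2 was left out, and 6 without CC4:2 replicate 3. In VP4:2 against CC4:4, 3 fell and 0 rose, at a background of 11.2% of all genes called (5.7% higher and 5.51% lower), with medians of -0.59 and -0.01. In VP4:2 against Control, 5 fell and 1 rose (background 18.9%, with 9.3% higher and 9.57% lower, and medians of -0.71 and -0.04). In CC4:2 against CC4:4, 8 fell and 0 rose (background 39.2%, with 18.5% higher and 20.7% lower, and medians of -1.97 and 0.01), and in CC4:2 against Control the same 8 genes fell and 0 rose (background 43.5%, with 20.3% higher and 23.2% lower, and medians of -2.20 and -0.05), with Il1rap and Il33 outside the call. These 8 were called under each of the 12 alternative settings in both comparisons. Comparisons that share a group share its libraries, so their counts are not independent. The conduit of the 4:4 shape gave 0 calls against Control among the 10 genes and among all genes (background 0%) by edgeR. Unadjusted, 830 of the 15712 tested genes and 1 of the 10 (Il1a, -1.38 ± 0.52, adjusted p = 0.929) had a p under 0.05. That share of all genes is near the one this threshold lets through where no gene differs. DESeq2 called 10 genes there, none of the 10 members. A p that misses the threshold does not show that the 2 groups are alike, and without Control replicate 1 edgeR called 295 genes there and 0 members.

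Sequencing platform was balanced over the groups, with replicates 1 and 2 of each group on a NovaSeq X Plus and replicate 3 on a DNBSEQ-T7, which holds 1 library per group and gives no test of its own. Among NovaSeq libraries alone, 3 members were called in VP4:2 against CC4:2 (Il1b, Il1rn and Nlrp3), 1 in VP4:2 against CC4:4 (Il1b) and 1 in VP4:2 against Control (Il1b). The 8 falls in CC4:2 against CC4:4 and against Control were called there too. Of the 78 calls of related genes that the naming rule picked over all comparisons, 40 were lost among NovaSeq libraries alone.

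Marker sums of macrophages, neutrophils and lymphocytes moved with some of these genes. Whole stumps were sequenced, so fewer cells of a type and less RNA per cell cannot be told apart. The 12 macrophage and monocyte markers summed to 4172 to 6454 CPM in VP4:2, 1653 to 2126 CPM in CC4:2, 5014 to 5777 CPM in CC4:4 and 5602 to 11866 CPM in Control. Of these 12 markers 8 rose in VP4:2 against CC4:2 (6.23% of all genes called), 9 fell in CC4:2 against Control (43.5%) and 1 fell in VP4:2 against Control (18.9%), and Il1rn was likewise lowest in CC4:2. The 8 neutrophil markers summed to 18.1 to 23.6 CPM in VP4:2, 15.7 to 23.5 CPM in CC4:2, 275 to 705 CPM in CC4:4 and 267 to 536 CPM in Control, low and high in the same groups as Il1a, Il1b and Il1r2. Of the 7 tested neutrophil markers, 6 fell and 1 rose (Mpo) both in VP4:2 (18.9% of all genes called) and in CC4:2 (43.5%) against Control, and 0 were called in VP4:2 against CC4:2 by edgeR, by DESeq2 or at an unadjusted p under 0.05. Ngp was at 0 in 7 libraries and Camp in 2. Lymphocyte markers summed to 45.8 to 85.5 CPM in VP4:2, 8.63 to 24.5 CPM in CC4:2, 283 to 705 CPM in CC4:4 and 216 to 579 CPM in Control. The part of these cells in the changes was not tested. Beside Il33, Schwann cell markers summed to 10641 to 15802 CPM in VP4:2, 11454 to 30333 CPM in CC4:2, 2209 to 2889 CPM in CC4:4 and 331 to 3939 CPM in Control, and 0 of 8 were called in VP4:2 against CC4:2 by either tool or at an unadjusted p under 0.05. Fibroblast markers summed to 13651 to 19150 CPM in VP4:2, 19822 to 44141 CPM in CC4:2, 38924 to 57047 CPM in CC4:4 and 11735 to 51956 CPM in Control, and endothelial markers to 782 to 921, 946 to 1464, 829 to 1242 and 541 to 1054 CPM in the same order. Of the 7 fibroblast markers, 0 were called in VP4:2 against CC4:2 (6.23% of all genes called) and against CC4:4 (11.2%), and 1 rose against Control (18.9%). Col1a1 and Col1a2 make up most of the fibroblast sum, and Pi16 and Pdgfra ran differently from it. Dcn, Lum and Dpt are not printed here. Pi16 averaged 81.0 ± 13.1 CPM in VP4:2, 77.7 ± 33.9 CPM in CC4:2, 37.4 ± 16.2 CPM in CC4:4 and 32.1 ± 3.27 CPM in Control, and Pdgfra 230.1 ± 28.5, 225 ± 25.5, 223 ± 3.84 and 210.1 ± 27.8 CPM in the same order (SD, n = 3 each). The part of these cells in the Il33 values was not tested. Keratinocyte markers summed to 4.96 to 12.4 CPM over the 12 libraries, with Krt5 and Krt1 at 0.410 CPM or less.

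**Figure D4:**
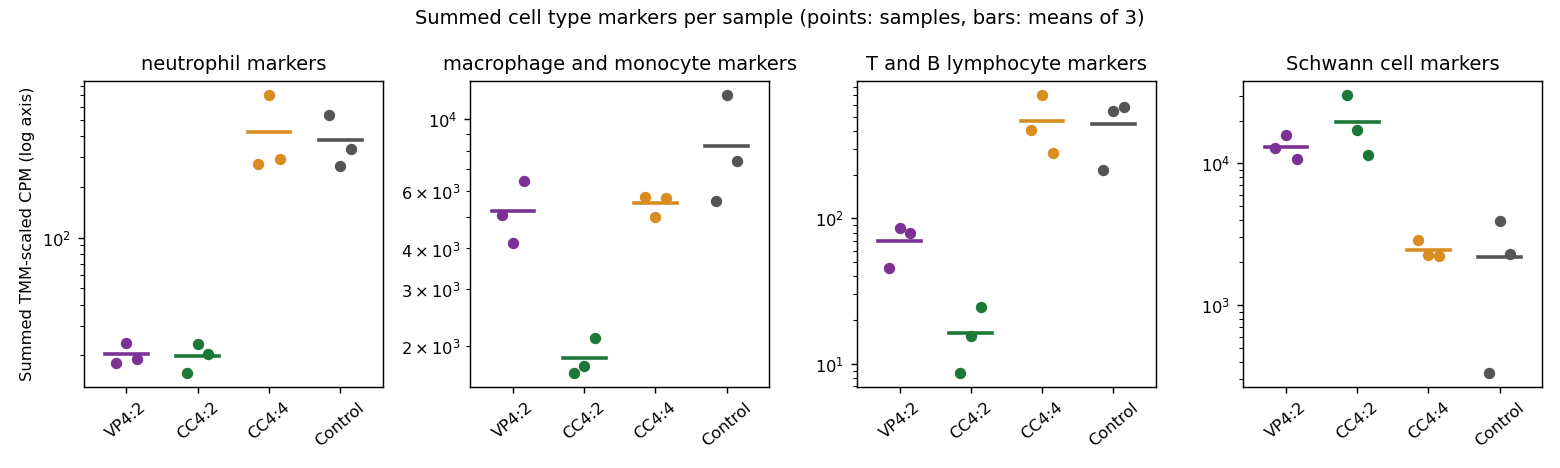
Summed CPM of marker genes in each library, on log axes, for VP4:2, CC4:2, CC4:4 and Control stumps from left to right, by cell type. Neutrophil sums stay at 15.7 to 23.6 CPM in the VP4:2 and CC4:2 libraries and reach 267 CPM or more in CC4:4 and Control libraries, while macrophage sums are lowest in CC4:2 (1653 to 2126 CPM).

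Over the 12 libraries, the 10 genes varied together in part. The values below are Pearson correlations of log2 CPM, which are a description, since the libraries form 4 groups and share depth and composition. Il1a and Il1b had an r of 0.978, Il1b and Il1r2 one of 0.965, and Nlrp3 and Casp1 one of 0.961, against 0.801 for Il1b with Il1rn. Il33 correlated with none of the other 9 above 0.0853, down to -0.448 with Il1a. Among the genes most like each member, out of 12983 candidates of at least 1 CPM on average, were Runx3 (0.994), Sod2 (0.990) and Mrpl57 (0.989) for Il1b, Cd44 (0.987) and Hk3 (0.982) for Il1rn, and Upp1 (0.991), Csf3r (0.988) and Hars1 (0.986) for Il1r2. Csf3r stands in the neutrophil marker list. For Il1a they were Cpsf4 (0.979), Sla2 (0.978) and Birc3 (0.978), for Nlrp3 Arl5c (0.986), Pvrig (0.981) and Tlr10 (0.980), and for Casp1 Fyb1 (0.990), Ptpn22 (0.989) and Ikzf1 (0.989). Il18 was most like Uqcrh (0.981), Aif1 (0.977) and Slc25a46 (0.976), of which Aif1 is in the macrophage list. Il1r1 was most like Slc39a14 (0.974), Osmr (0.970) and Wt1 (0.970), Il1rap like Asmtl (0.898), Rae1 (0.865) and Trmt61a (0.847), and Il33 like Mgp (0.916), Thbs1 (0.889) and Tlr4 (0.881).

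Other ligands, receptors and binding proteins of the family were read from a list of 13 genes, of which 8 were tested. In VP4:2 against CC4:2, which called 6.23% of all genes, 5 rose and 0 fell, with a median of 1.46 over the 8 and -0.03 over all genes. Il1f10, which encodes IL-38, is one of the 5 and passed the filter only through its VP4:2 libraries, so its call there supports nothing. It was at 0.603, 0.591 and 0.757 CPM in VP4:2, and the 3 CC4:2 libraries held 1 count in all. Besides Il1rl1 and Il18bp, the others were Il36b, an IL-36 agonist, at 1.21, 1.61 and 2.00 CPM in VP4:2 and 0.0529, 0.282 and 0.0522 CPM in CC4:2 (3.59 ± 0.57, adjusted p = 0.00389), and Il1rl2, the IL-36 receptor, named after its values were seen. Il1rl2 was at 7.67, 2.09 and 1.95 CPM in VP4:2 and 0.265, 0.451 and 0.313 CPM in CC4:2 (3.48 ± 0.71, adjusted p = 0.0158), with VP4:2 replicate 1 far above the other VP4:2 libraries. Its call was lost without any 1 of the CC4:2 libraries (adjusted p of 0.0548 to 0.0665), and among NovaSeq libraries alone neither Il36b (0.145) nor Il1rl2 (0.154) was called. In CC4:2 against Control, which called 43.5% of all genes, all 8 fell. Among NovaSeq libraries alone the falls of Il1rl1 (0.164), Sigirr (0.0864), Il1f10 (0.0751), Il18bp (0.0670) and Il1rl2 (0.0506) were lost. That of Il1rl1 was also lost without any 1 of the CC4:2 libraries (0.0657 to 0.0896). Counts were low for Il1f10 (1 in CC4:2 and 21 in Control) and Il36b (7 and 49). Both chains of the IL-18 receptor, Il18r1 and Il18rap, fell in VP4:2 against Control (-1.73 ± 0.38, adjusted p = 0.0132, and -2.35 ± 0.35, adjusted p = 0.00392), where Il18 itself did not pass the test. For Il18r1 that call was lost without VP4:2 replicate 1 (adjusted p = 0.0570) or Control replicate 3 (0.0504), and among NovaSeq libraries alone both calls were lost (0.145 for Il18r1 and 0.0727 for Il18rap).

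Of 15 further inflammasome genes, 1 rose in VP4:2 against CC4:2, a share near the 6.23% of all genes called. It was Pycard, the ASC adaptor that links sensors to caspase 1 (1.13 ± 0.21, adjusted p = 0.0109, 0.0533 without VP4:2 replicate 3 and 0.116 among NovaSeq libraries alone). In CC4:2 against Control, at 43.5% of all genes called, 9 fell and 3 rose. The falls included Ninj1, which ruptures the membrane of dying cells (-1.79 ± 0.16, adjusted p = 4.43e-05), Pycard (-1.53 ± 0.22, adjusted p = 0.000417) and Casp8 (-1.35 ± 0.20, adjusted p = 0.000470). Gsdme, a pore-forming gasdermin that caspase 3 cuts, rose instead. It was at 6.80, 6.93 and 5.14 CPM in VP4:2, 8.15, 7.61 and 6.84 CPM in CC4:2, 1.70, 1.15 and 1.85 CPM in CC4:4 and 1.69, 3.20 and 1.45 CPM in Control, high in both 4:2 groups. Its change was 1.57 ± 0.31 in VP4:2 (adjusted p = 0.00934) and 1.83 ± 0.31 in CC4:2 (adjusted p = 0.00114) against Control, and the VP4:2 call was lost among NovaSeq libraries alone (0.125). Among 3 tested extracellular proteases that can cut IL-1 family precursors, Ctss, a cathepsin of phagocytes, rose in VP4:2 against CC4:2 (1.42 ± 0.23, adjusted p = 0.00409, and 0.0586 among NovaSeq libraries alone).

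Of 22 genes of signalling from the IL-1 receptor to NF-kB, 1 rose in VP4:2 against CC4:2, a share under the 6.23% of all genes called. It was Irak4, a kinase at the receptor complex (0.48 ± 0.12, adjusted p = 0.0407). That call was lost without any 1 of the VP4:2 libraries or CC4:2 replicate 1 or 2 (0.0724 to 0.155), without the filter (0.0664), with the replicate number as a block (0.0651), on the 6 compared samples (0.0811) and among NovaSeq libraries alone (0.220). Against Control 8 fell in VP4:2 (18.9% of all genes called), and 14 fell and 1 rose in CC4:2 (43.5%). Nfkbiz and Zc3h12a, a co-regulator and an RNase that IL-1 induces, fell in VP4:2 against Control by 2.48 ± 0.29 (adjusted p = 0.00148) and by 2.24 ± 0.23 (adjusted p = 0.000972). Among NovaSeq libraries alone none of the 8 falls in VP4:2 was called (0.0727 to 0.286). Those of Irak2, Nfkb2 and Peli1 were also lost without any 1 of the VP4:2 libraries (0.0629 to 0.146) and on the 6 compared samples (0.0570 to 0.0675). In CC4:2 against Control, NovaSeq libraries alone lost the falls of Irak2, Irak3, Map3k7, Chuk, Ikbkb, Ikbkg, Nfkb1 and Nfkb2 (0.0671 to 0.329).

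The 17 tested genes known to respond to IL-1 were mostly lower in both 4:2 groups than in Control. The list was chosen with these data known. CC4:2 against Control, at 43.5% of all genes called, had 15 of the 17 lower and 0 higher. Its median was -3.80 over the 17 and -0.05 over all genes. VP4:2 against Control, at 18.9% of all genes called, also had 15 of the 17 lower and 0 higher. Csf3 is one of the 15 in VP4:2 and would not have passed the filter without its Control libraries. Neither its call there nor its value in CC4:2 against Control supports anything. The median in VP4:2 against Control was -2.85 over the 17 and -0.04 over all genes. Among the genes that fell in VP4:2 were the neutrophil attractants Cxcl2 (-7.09 ± 0.58, adjusted p = 0.000897) and Cxcl1 (-4.89 ± 0.49, adjusted p = 0.000897) and the prostaglandin synthase Ptgs2 (-3.38 ± 0.38, adjusted p = 0.00139). Ccl2, which draws monocytes, was one that did not: it was at 49.8, 38.8 and 56.1 CPM in VP4:2, 7.36, 3.72 and 10.2 CPM in CC4:2, 57.1, 75.1 and 61.8 CPM in CC4:4 and 82.6, 60.2 and 74.2 CPM in Control. It rose 6.79-fold in VP4:2 against CC4:2 (2.76 ± 0.31, adjusted p = 0.000560), and its difference from Control was -0.59 and did not pass the test. Against CC4:2, at 6.23% of all genes called, 5 of the 17 rose and 0 fell in VP4:2, among them the collagenase Mmp13 (7.18 ± 0.96, adjusted p = 0.00153), Mmp3 (2.23 ± 0.43, adjusted p = 0.0120) and Sod2 (1.12 ± 0.21, adjusted p = 0.00968). These 3 were lower in VP4:2 than in Control all the same (-3.26 ± 0.75, -1.57 ± 0.42 and -1.97 ± 0.21, adjusted p = 0.0159, 0.0271 and 0.00112). For Mmp13 no CC4:2 library reached the filter's cutoff of 0.589 CPM, so its 7.18 against CC4:2 rests on values near 0 in that group. Among NovaSeq libraries alone, Mmp13, Mmp3 and Sod2 were called in neither comparison (adjusted p of 0.0592 to 0.181), nor was Cxcl1 against Control (0.0727). The falls of Mmp13 and Mmp3 against Control were also lost without some single libraries (0.0512 to 0.0995), and that of Mmp13 on the 6 compared samples (0.0689).

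**Figure D5:**
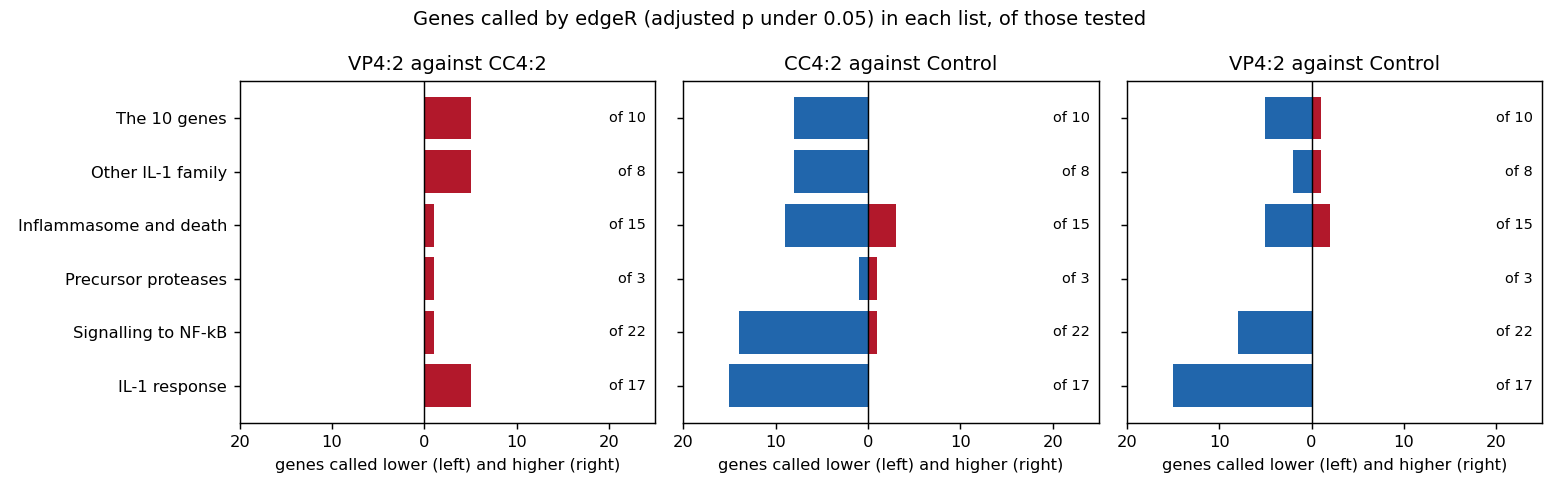
Number of tested genes that were higher or lower (adjusted p under 0.05, edgeR) in VP4:2 against CC4:2, CC4:2 against Control and VP4:2 against Control, for the 10 members and 5 lists of related genes. For VP4:2 against Control the IL-1 response list has 15 of 17 genes lower and the members 5 of 10 lower and 1 higher. These 15 include Csf3, which would not have passed the filter without its Control libraries. For CC4:2 against Control the same list, with Csf3 among the 17, also has 15 of 17 genes lower, and the members 8 of 10. Csf3 supports nothing in either comparison with Control.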

How the data were processed

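Stranded poly(A) libraries of 12 stumps of the rat sciatic nerve were sequenced, per the labels' protocols. The authors deposited expected counts for each gene, an estimate that can be fractional, and the table was not normalized as far as the sources show. Per the submitters' processing notes, HISAT2, StringTie, RSEM and DESeq2 were used. Their versions, the genome build and the annotation are not given in the sources used here. Each of the 12 deposited files held the same table, so 1 was analysed and the other 11 were left aside. Between 9.44% and 11.1% of the values in a library were not whole, and all were rounded before testing.

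Library totals were 13763106 to 18632301 counts, which with 3 samples per group sets the precision. Counts were tested in R 4.3.3 with edgeR 4.0.16 and limma 3.58.1 (TMM scaling, filterByExpr, 1 term per group, 8 residual degrees of freedom, Benjamini-Hochberg adjustment over 15712 genes). The SE was derived from the test as the absolute log2 fold change over the root of F. Ratios within libraries were compared by exact two-sided permutation tests. Groups share replicate numbers. Deviations of same-numbered samples in VP4:2 and CC4:2 correlated at 0.119, 0.277 and 0.433 for replicates 1, 2 and 3, all over 0.1. VP4:2 replicate 1 correlated more with CC4:2 replicate 2 (0.183). In no other pair of groups were all 3 over 0.1. Over all groups, 7 of 18 same-numbered pairs and 9 of 36 others were over 0.1. No label states a pairing, and replicate 3 was the DNBSEQ-T7 library of every group, so number and platform cannot be told apart there. The main test left the number out. The value with the number as a block is given where it changes a call in VP4:2 against CC4:2. The test script was checked on simulated counts. No 2 replicates agreed within sampling noise (chi-square per degree of freedom of 47.3 to 318).

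The 10 members and the lists of related and marker genes were chosen with earlier results of these data known. The text names all members, up to 4 called genes of smallest p per related list and comparison, of which a part is printed, and the 3 genes most correlated with each member (mean of at least 1 CPM, usual symbol), of which 1 is not reported here. Of the listed related genes, Ptges and Saa3 were not matched by symbol. Alternatives were RLE size factors, no filter, the replicate number as a block, NovaSeq libraries alone, the 6 compared samples alone, DESeq2 1.42.0 and leaving out each library. Promoters came from RefSeq on GRCr8 by symbol, which gave 11 windows for 9 of the 10 members. Reads of overlapping genes could be shared in the estimate, and whether Il1rn overlaps a neighbour was not tested.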

Additional observations from a re-analysis of the deposited data

How the results depend on the processing

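With RLE size factors or without the filter, no call of a member changed in any of the 6 comparisons. NovaSeq libraries alone gave 3, 1 and 1 members called in VP4:2 against CC4:2, CC4:4 and Control, with 202, 29 and 19 genes, and 3253 and 3220 genes in CC4:2 against CC4:4 and Control. The 6 compared samples alone gave 5 members and 3321 genes in VP4:2 against CC4:4, 1869 genes in VP4:2 against Control and 4363 in CC4:2 against Control. DESeq2 gave 8 members and 1861 genes in VP4:2 against CC4:2, 3083 genes in VP4:2 against CC4:4 and 10 in CC4:4 against Control. Leaving out 1 library gave 1 to 6 members and 466 to 746 genes in VP4:2 against CC4:2, 232 to 1175 genes in VP4:2 against CC4:4, 1166 to 4294 in VP4:2 against Control and 0 to 295 in CC4:4 against Control. Fewer samples enter these fits, and for the other settings the cause was not tested.

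Differences that did not pass the test changed sign in places. In CC4:4 against Control, NovaSeq libraries alone gave 0.16 for Il1b, 0.22 for Il1rn and 0.0575 for Casp1, and the replicate block gave 0.0380 for Il18. With 1 library left out, the log2 fold changes ran between -0.0734 and 0.0656 for Il1rap in VP4:2 against CC4:2, -0.14 and 0.10 for Il33 in CC4:2 against CC4:4, and -0.29 and 0.31 for Il1rn in VP4:2 against CC4:4. In CC4:4 against Control they ran between -0.15 and 0.28 for Il1r1, -0.51 and 0.52 for Il1r2, and -0.27 and 0.39 for Il18.

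With the replicate block, 853 genes were called in VP4:2 against CC4:2, 5705 in CC4:2 against CC4:4, 1443 in VP4:2 against CC4:4, 2505 in VP4:2 against Control, 6334 in CC4:2 against Control and 0 in CC4:4 against Control. The members called numbered 4, 8, 3, 6, 8 and 0 in the same order, with Nlrp3 in VP4:2 against CC4:2 outside the call (adjusted p = 0.0693). Of the related genes tested, the block ended the call of Irak4 in VP4:2 against CC4:2 (0.0651) and changed no other there. For the comparisons other than VP4:2 against CC4:2, the block is given only here.

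Depth limits Il1a, whose CC4:2 libraries hold 1 count in all. With 3 samples per group, smaller differences, such as those of Casp1, Il1r1 and Il33 in VP4:2 against CC4:2, passed or missed the threshold with the setting: DESeq2 called all 3 (adjusted p = 0.0210, 0.00818 and 0.0194).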

Other observations

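Extracellular proteases that can cut IL-1 family precursors did not move as 1 group. Ctss, a cathepsin of phagocytes, was at 485, 421 and 531 CPM in VP4:2, at 155, 147 and 233 CPM in CC4:2 and at 514, 736 and 738 CPM in Control, and fell in CC4:2 against Control (-1.89 ± 0.23, edgeR adjusted p = 0.000200). Cma1, the mast cell chymase, was at 18.0, 10.2 and 15.0 CPM in CC4:2 and at 2.36, 8.04 and 2.75 CPM in Control, a rise of 1.72 ± 0.51 (edgeR adjusted p = 0.0194) that was lost without CC4:2 replicate 1 (0.0572), Control replicate 1 (0.0520) or Control replicate 3 (0.0694), and among NovaSeq libraries alone (0.177). Mast cell markers summed to 45.1 to 74.4 CPM in CC4:2 and 18.6 to 45.3 CPM in Control, and their part in the Cma1 values was not tested.

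Of the IL-36 branch, Il1rl2, the IL-36 receptor, was at 0.265, 0.451 and 0.313 CPM in CC4:2 and at 5.57, 8.74 and 7.45 CPM in CC4:4, a change of -4.38 ± 0.72 (edgeR adjusted p = 0.00119). Its antagonist Il36rn was at 0 in all libraries but 1 of Control.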
